A study of Mus musculus with 10 samples.

Results

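Aquaporins are small membrane proteins that form pores for water, and 9 of their genes were followed here in the mouse cochlea: Aqp1, Aqp2, Aqp3, Aqp4, Aqp5, Aqp7, Aqp8, Aqp9 and Aqp11. They were found by gene symbol in the platform annotation, current or older, and were represented by 18 of 45037 probe sets, which carry 18193 named genes in all. Cochleae came from male mice aged 9 months. The 5 D257A samples came from mice homozygous for Polg D257A (PolgD257A/D257A), a form of the mitochondrial DNA polymerase that lacks proofreading and lets mutations build up in mitochondrial DNA. The 5 wild-type samples (WT in the figures) came from Polg+/+ mice. The mutation is in the germline and thus not limited to one cell type, and the labels name no treatment. Total RNA of whole cochlear tissue was hybridised to 1 array per sample, and the comparison asked which transcripts differ once such mutations have built up with age.

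Most aquaporins pass water alone, and osmotic gradients drive that water through the membrane. A second branch, the aquaglyceroporins Aqp3, Aqp7 and Aqp9, also passes glycerol, and Aqp11 is a divergent member found inside the cell. In the inner ear, water channels lie in supporting cells, fibrocytes and the cells of the outer sulcus, beside the potassium-rich endolymph, while other aquaporins are best known from kidney, glands, skin, fat, blood and glia.

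The labels number the samples within each group and do not say that each is a separate animal, and the design text states that no replicates were done. The p-values below therefore measure only the spread between these samples, which may be technical. Trimmed mean signals were nearly equal on all arrays (1494 to 1496). The arrays least correlated with the rest of their own group were D257A replicate 2 (mean r = 0.89 over log2 signals) and wild-type replicate 3 (0.914). Of 15 markers of cochlea and vestibule, 11 lay in the brighter 50% of probe sets, Coch, Otos, Gjb2 and Gjb6 among them. The hair cell genes Slc26a5 and Pou4f3 were among the 4 that did not. The list held no called gene in either direction, with a median log2 fold change of -0.114.

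Only probe sets in the brighter 50% by mean log2 signal were tested, which placed the lower edge at a mean signal of about 577. Of the 18 aquaporin probe sets 7 passed this filter, 1 each for Aqp1, Aqp2, Aqp5 and Aqp11 and 3 for Aqp4. The other 11 probe sets were dim. They were the only ones for Aqp3, Aqp7, Aqp8 and Aqp9, and 2 of the 3 for Aqp11. Mean signals just inside and just outside the edge were 592.6 (Aqp2) and 494.6 (the brightest of Aqp3). Without detection calls the dim probe sets were not shown to be above background, and their values are given with that limit.

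Aqp1 and Aqp5 were called lower in D257A cochleae, and no aquaporin was called higher. Aqp1, the constitutive water channel of red cells, capillaries and many epithelia, fell by 0.81 on the log2 scale, and Aqp5, the water channel of gland and airway secretory cells, fell by 2.05. These 2 of 7 tested aquaporin probe sets passed an adjusted p of 0.05 in limma, against 2.28% of all 22518 tested probe sets (1.24% lower and 1.03% higher). Aqp5 was tested only because it was high in wild-type samples, so this count is no support for a direction. The median log2 fold change of the 7 was -0.0666, with 4 negative and 3 positive. Over all tested probe sets the median was -0.000544 and 50.1% were negative. Leaving out single arrays ended each of the 2 calls in 9 of 10 refits, with log2 fold changes of -0.943 to -0.717 for Aqp1 and -2.46 to -1.77 for Aqp5.

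The windows around the start sites of Aqp1, Aqp5 and Aqp3 are shown because these are the members with at least 1 unadjusted p under 0.05, each 250 bases before to 50 after the start, from RefSeq on GRCm38.p6. They lie at chr6:55336049-55336348 on the plus strand, chr15:99590778-99591077 on the plus strand and chr4:41098134-41098433 on the minus strand. Capitals mark matches on either strand to the TATA box core (TATAAA) and to the core of the GC box, a site bound by Sp1-type factors (GGGCGG).
Aqp1: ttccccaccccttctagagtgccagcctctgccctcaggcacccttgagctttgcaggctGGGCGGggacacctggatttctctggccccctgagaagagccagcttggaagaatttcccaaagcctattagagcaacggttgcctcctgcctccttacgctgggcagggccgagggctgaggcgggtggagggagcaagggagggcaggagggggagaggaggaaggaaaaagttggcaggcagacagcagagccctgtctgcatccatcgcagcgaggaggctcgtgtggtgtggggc
Aqp5: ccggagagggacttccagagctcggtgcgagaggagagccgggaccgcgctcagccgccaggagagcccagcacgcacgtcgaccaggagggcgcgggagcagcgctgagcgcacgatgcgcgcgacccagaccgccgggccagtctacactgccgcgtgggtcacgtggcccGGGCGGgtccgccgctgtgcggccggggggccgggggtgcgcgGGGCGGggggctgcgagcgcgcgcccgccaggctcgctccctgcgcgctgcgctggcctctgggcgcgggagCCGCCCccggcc
Aqp3: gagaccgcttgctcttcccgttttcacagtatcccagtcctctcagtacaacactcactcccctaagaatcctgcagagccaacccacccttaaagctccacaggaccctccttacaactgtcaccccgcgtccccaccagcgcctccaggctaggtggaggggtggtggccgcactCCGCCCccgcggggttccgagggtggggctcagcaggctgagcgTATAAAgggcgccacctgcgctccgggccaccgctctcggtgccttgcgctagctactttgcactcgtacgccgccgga

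The Aqp3 window held the TATA box core 29 bases before the start. Those of Aqp1 and Aqp5 did not hold these letters, which stood in 13.6% of 32851 windows of the same length. The GC box core stood once in the Aqp1 window, once in that of Aqp3 (as its reverse complement) and 3 times in that of Aqp5 (1 as its reverse complement), against at least once in 35.7% of all windows. CCAAT was found on neither strand of these 3 windows and in 37.4% of all. No match overlapped another. The share of G and C was 62.7% for Aqp1, 79.7% for Aqp5 and 64% for Aqp3, against a median of 52.7% over all windows. Of the 9 genes, 8 had a window, and Aqp4 is named only.

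Aqp1 had signals of 4789, 3591.5, 4898, 4461.5 and 4391.5 in D257A replicates 1 to 5, against 8184.4, 7652.1, 5391.7, 8145.1 and 10119.7 in wild-type replicates 1 to 5. Every D257A sample lay below every wild-type sample, as in 2.69% of tested probe sets, and wild-type replicate 3 was the closest to the D257A range. The mean was 4426 ± 513.2 in D257A and 7899 ± 1690 in wild-type cochleae (SD, n = 5 each). The log2 fold change was -0.81 (95% interval -1.20 to -0.43, SE 0.18), with a limma adjusted p of 0.0359. It passed under both other scalings and both other pseudocounts (adjusted p 0.0266 to 0.0401), and with the replicate number as a block its adjusted p was 0.101. In tissue RNA, fewer cells of a type and less RNA per cell cannot be told apart.

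Cells rich in Aqp1 outside the cochlear duct include red cell precursors, endothelium and the choroid plexus, the brain epithelium that secretes cerebrospinal fluid. Erythroid markers (5 of 9 named, 3 tested, none called, median log2 fold change -0.499) summed to between 17085.6 and 29950.5 in D257A and between 25634.7 and 39936.8 in wild-type samples, so the groups overlapped. Endothelial markers (8 of 8 named, 6 tested, none called, median -0.0106) summed to between 9581.2 and 15030 in D257A and between 11623.2 and 15694.6 in wild-type samples. Of 9 choroid plexus markers 8 were named and 5 tested, and 1 was called, higher (0.657% of all tested genes were called higher). Their sum was 97312.2, 183703, 90105, 16411.4 and 151168 in D257A replicates 1 to 5 and 13768.3 to 18928.5 in wild-type samples, and D257A replicate 4 lay within the wild-type range. In every D257A sample most of it was the thyroxine carrier Ttr, the called gene (log2 fold change 3.08, adjusted p = 0.0168). The other tested markers did not pass, with log2 fold changes of 1.18 for Kl, 0.85 for Kcnj13, 0.24 for Clic6 and -0.17 for Cldn2. With group means removed, the correlation of Aqp1 over the 10 arrays was 0.24 with the erythroid sum (Spearman 0.394), 0.621 with the endothelial sum (Spearman 0.442) and -0.176 with the choroid plexus sum (Spearman -0.115). The endothelial value was -0.311 without the 2 arrays farthest from the median, D257A replicate 2 and wild-type replicate 3. The part of these cells in the Aqp1 difference was not tested.

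Aqp5 had signals of 351.2, 787.5, 336.5, 808.8 and 816.8 in D257A replicates 1 to 5, against 780.8, 4147.5, 2925.9, 1665.7 and 5315.5 in wild-type replicates 1 to 5. Wild-type replicate 1 fell within the D257A range and the other wild-type samples lay above it, so the groups overlapped through 1 array. D257A replicates 1 and 3 were the lowest and fell below the edge of tested signals. On the log2 scale of the filter, the D257A mean of Aqp5 also lay just below that edge. Aqp5 was thus tested only because it was high in wild-type samples. The mean was 620.2 ± 252.5 in D257A and 2967 ± 1829 in wild-type cochleae (SD, n = 5 each), with a log2 fold change of -2.05 (95% interval -3.08 to -1.03) and a limma adjusted p of 0.0439. Without wild-type replicate 1 the log2 fold change was -2.46 (adjusted p = 0.00836), and without wild-type replicate 2 it was -1.86 (adjusted p = 0.123). In the fit over all 45037 probe sets, dim ones included, its adjusted p was 0.0519.

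Some of the gland and airway markers were called lower beside Aqp5. Of 11 markers all were named and 9 were tested, with a median log2 fold change of -4.07, and 6 were called: Bpifb1, Dmbt1, Muc5b, Lipf, Tff2 and Gp2, which encode secreted or mucosal proteins (2.32% of 11871 tested genes were called, 1.66% lower). Their summed signal was between 60385.5 and 103140 in D257A samples. In wild-type samples it was 166339 in replicate 1 and between 302690 and 467304 in the others, so the wild-type sample lowest in Aqp5 was also lowest in these markers. Mean D257A signals of Muc5b (230.8), Tff2 (278.3) and Gp2 (331) were below the edge of tested signals, so these genes were tested only because they were high in wild-type samples, and the count and median are no support for a direction. Bpifa1 (log2 fold change -0.59, adjusted p = 0.052) and Pigr (-2.22, adjusted p = 0.0594) did not pass. The airway gene Scgb3a1 averaged 868.1 ± 277.5 in D257A and 868.7 ± 245 in wild-type cochleae (SD, n = 5 each; log2 fold change -0.02). The airway markers Muc5ac and Scgb1a1 were dim, with positive log2 fold changes of 0.10 and 0.95 that did not pass. With group means removed, Aqp5 and the summed markers had a correlation of 0.9 over 10 arrays (Spearman 0.758), and 0.889 without the 2 arrays farthest from the median. This list was chosen with earlier results of these samples known, and its part in the Aqp5 difference was not tested.

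**Figure D1:**
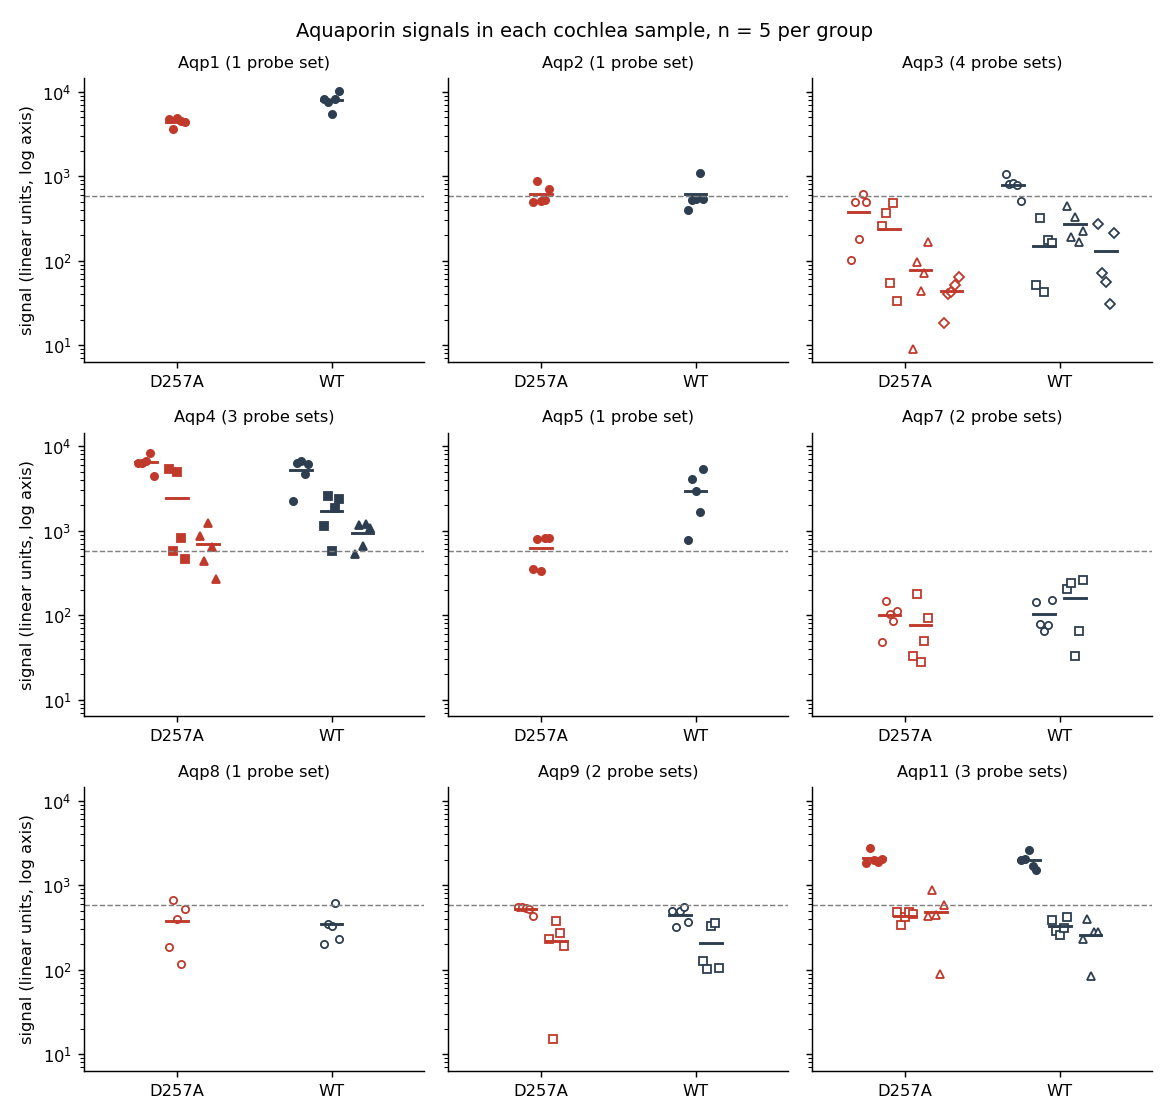
Signal of every aquaporin probe set in each sample (linear units on a log axis), D257A left of WT, n = 5 each; each symbol shape is 1 probe set, filled symbols are tested and open symbols dim probe sets, short lines are group means and the dashed line is the edge of tested signals at about 577. The D257A points of Aqp1 (3591.5 to 4898) lie below all its WT points (5391.7 to 10119.7), and 1 WT point of Aqp5 (780.8) lies among its D257A points.

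Aqp4 did not pass the test, and its 3 probe sets disagreed. It is the water channel of supporting cells in the organ of Corti and of astrocyte endfeet. The brightest, 1434449_at, measured 6293.7, 6308.2, 6772.9, 8281.1 and 4467.1 in D257A replicates 1 to 5, against 2246.7, 6334.1, 6682.7, 4698.1 and 6179.9 in wild-type replicates 1 to 5. The groups overlapped, and wild-type replicate 1 was the lowest of all samples. The mean was 6425 ± 1363 in D257A and 5228 ± 1831 in wild-type cochleae (SD, n = 5 each; log2 fold change 0.37, 95% interval -0.25 to 0.98, limma adjusted p = 0.551). Without wild-type replicate 1 the log2 fold change was 0.09 (adjusted p = 0.88).

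The second Aqp4 probe set, 1425382_a_at, measured 5331.5, 568.2, 4971.7, 826.1 and 460.6 in D257A replicates 1 to 5, against 1150.9, 2553.5, 579.5, 1846.1 and 2353.1 in wild-type replicates 1 to 5. D257A replicates 1 and 3 lay above every wild-type sample, whereas replicates 2 and 5 lay below every one. The interval was accordingly wide (log2 fold change -0.07, 95% interval -1.56 to 1.43, adjusted p = 0.977), and the sign turned with array weights and in 6 of 10 refits without a single array. The third, 1447745_at, averaged 687 ± 375 in D257A and 927.4 ± 312.4 in wild-type cochleae (log2 fold change -0.53, 95% interval -1.35 to 0.29, adjusted p = 0.512). Over the 10 arrays, log2 signals of 1425382_a_at and 1447745_at correlated with an r of 0.81, while 1434449_at correlated with them at 0.151 and 0.306. Which transcripts each probe set reads was not analysed here.

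Astrocyte and muscle markers are given beside Aqp4, since glia and the membrane of fast muscle fibres carry this channel. All 8 astrocyte markers were tested and none was called (median log2 fold change 0.1). Their sum was between 44282.4 and 80052.8 in D257A samples. In wild-type samples it was 23507.6 in replicate 1, where Aqp4 by 1434449_at was lowest as well, and between 45533.3 and 81909.3 in the others. With group means removed, 1434449_at had a correlation of 0.907 with this sum over 10 arrays (Spearman 0.818), and 0.773 without wild-type replicates 1 and 5. The other Aqp4 probe sets had 0.175 (1425382_a_at) and 0.459 (1447745_at). Skeletal muscle markers (11 of 11 tested, 6 called lower, median -3.17) summed to between 8344.9 and 244818 in D257A and between 155584 and 455374 in wild-type samples. Of all tested genes, 1.66% were called lower. The mean D257A signal of Myh2 (143.4) was below the edge, so it was tested only because it was high in wild-type samples. The count and median are thus no support for a direction. With group means removed, 1434449_at had a correlation of -0.538 with the muscle sum (Spearman -0.636), and -0.36 without D257A replicates 5 and 4. The other Aqp4 probe sets had -0.327 (1425382_a_at) and -0.564 (1447745_at). How much of the Aqp4 signal comes from either tissue was not tested.

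Partners that hold Aqp4 in the membrane through the dystrophin complex, with the potassium channel Kcnj10 that lies beside it in glia, were mostly without a call. Of 11 genes 10 were named and 9 tested, and 1 was called higher and none lower (median log2 fold change -0.151, against -0.0223 over all tested genes). Of all tested genes, 0.657% were called higher and 1.66% lower. The called gene was Kcnj10, which in the cochlea serves the intermediate cells of the stria vascularis. It averaged 5336 ± 661.2 in D257A and 2281 ± 753 in wild-type cochleae (SD, n = 5 each; log2 fold change 1.26, limma adjusted p = 0.00872). Dag1, the dystroglycan gene at the core of the complex, measured 9024 ± 457.4 in D257A and 12020 ± 676.5 in wild-type cochleae and did not pass (adjusted p = 0.102).

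Aqp2, the vasopressin-regulated channel of kidney collecting duct that is also found in the endolymphatic sac, measured 493.7, 871.6, 508.3, 516.7 and 705.1 in D257A replicates 1 to 5, against 397.2, 525, 544.4, 1088.9 and 537 in wild-type replicates 1 to 5. Its groups overlapped throughout. Means were 619.1 ± 165.6 in D257A and 618.5 ± 269.8 in wild-type cochleae, next to the edge of tested signals (log2 fold change 0.05, 95% interval -0.55 to 0.65, adjusted p = 0.951), and the sign turned under both other scalings. Of 5 markers of the endolymphatic sac, 4 were named and only Slc26a4, an anion exchanger that the cochlea also expresses, was tested (log2 fold change 0.32, adjusted p = 0.45). The acidifying pump subunits Atp6v1b1 and Atp6v0a4 and the transcription factor Foxi1 were dim. The list summed to between 9286.5 and 15545.5 in D257A and between 8100.2 and 12216.2 in wild-type samples.

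The vasopressin pathway that controls Aqp2 in kidney held 10 tested of 14 genes, with 1 called lower, none higher and a median log2 fold change of -0.00493. Of all tested genes, 1.66% were called lower and 0.657% higher. The hormone gene Avp and the receptors Avpr1a, Avpr1b and Avpr2 were all dim. Vamp2, a vesicle protein that serves Aqp2 trafficking and, in nerve endings, transmitter release, was the called gene. It averaged 4488 ± 1398 in D257A and 8675 ± 1278 in wild-type cochleae (SD, n = 5 each; log2 fold change -0.99, limma adjusted p = 0.0279).

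Among the aquaglyceroporins, Aqp3 was dim in all 4 probe sets. It is the water and glycerol channel of keratinocytes and other basal epithelial cells. The brightest, 1450460_at, measured 102.7, 491.5, 180.5, 620.8 and 493.1 in D257A replicates 1 to 5, against 1054.2, 806.2, 830.5, 777.2 and 515.2 in wild-type replicates 1 to 5. In D257A samples 4 of the 5 values lay below all wild-type values, and replicate 4 lay above wild-type replicate 5. In the fit over all 45037 probe sets its log2 fold change was -1.27 (95% interval -2.21 to -0.33) with an unadjusted p of 0.0118 and an adjusted p of 0.175, so it did not pass.

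The second probe set of Aqp3, 1422008_a_at, separated the groups, with 9, 96.7, 43.7, 71.4 and 165 in D257A replicates 1 to 5, against 441.9, 193.2, 332.3, 168 and 223.2 in wild-type replicates 1 to 5. All D257A values were below all wild-type values, as in 1.72% of all probe sets, although replicate 5 missed the wild-type range by little (log2 fold change -1.82, adjusted p = 0.0942 in the same fit). Probe set 1422007_at averaged 43.4 ± 16.9 in D257A and 128.7 ± 107 in wild-type cochleae (adjusted p = 0.359), and 1447727_at averaged 238.2 ± 194.8 in D257A and 150.5 ± 112.8 in wild-type cochleae (adjusted p = 0.829). The first 3 correlated with each other at 0.538 to 0.905 over the 10 arrays, and 1447727_at correlated with them at -0.408 to -0.0832.

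Some of the squamous epithelium markers were called lower in the same comparison. Of 12 markers 11 were named and 6 tested, with a median log2 fold change of -2.44, and 5 were called: the keratins Krt5, Krt14, Krt1 and Krt10 and the cornified envelope gene Lor. Of all tested genes, 1.66% were called lower. The sum of the named markers was between 4036.7 and 7308 in D257A and between 18452.7 and 47985.6 in wild-type samples, so it separated the groups. Mean D257A signals of Krt14 (348.2) and Krt1 (314.1) were below the edge, so these 2 were tested only because they were high in wild-type samples, and the count and median are no support for a direction. The basal cell genes Krt15 and Trp63 and the genes Dsc3, Krtdap and Sfn were dim. D257A replicates 1 and 3 were lowest both in these markers (4166.2 and 4036.7) and in Aqp3 by 1450460_at, and wild-type replicate 1 was highest in both. With group means removed, 1450460_at had a correlation of 0.653 with this sum (Spearman 0.697) and of 0.114 with the gland and airway sum (Spearman 0.321), the second being 0.474 without wild-type replicates 1 and 3. For 1422008_a_at the values without the 2 farthest arrays were 0.615 with the squamous and 0.684 with the gland and airway sum, so which list was closer depended on the probe set and the arrays. Whether squamous cells account for the Aqp3 values was not tested.

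**Figure D2:**
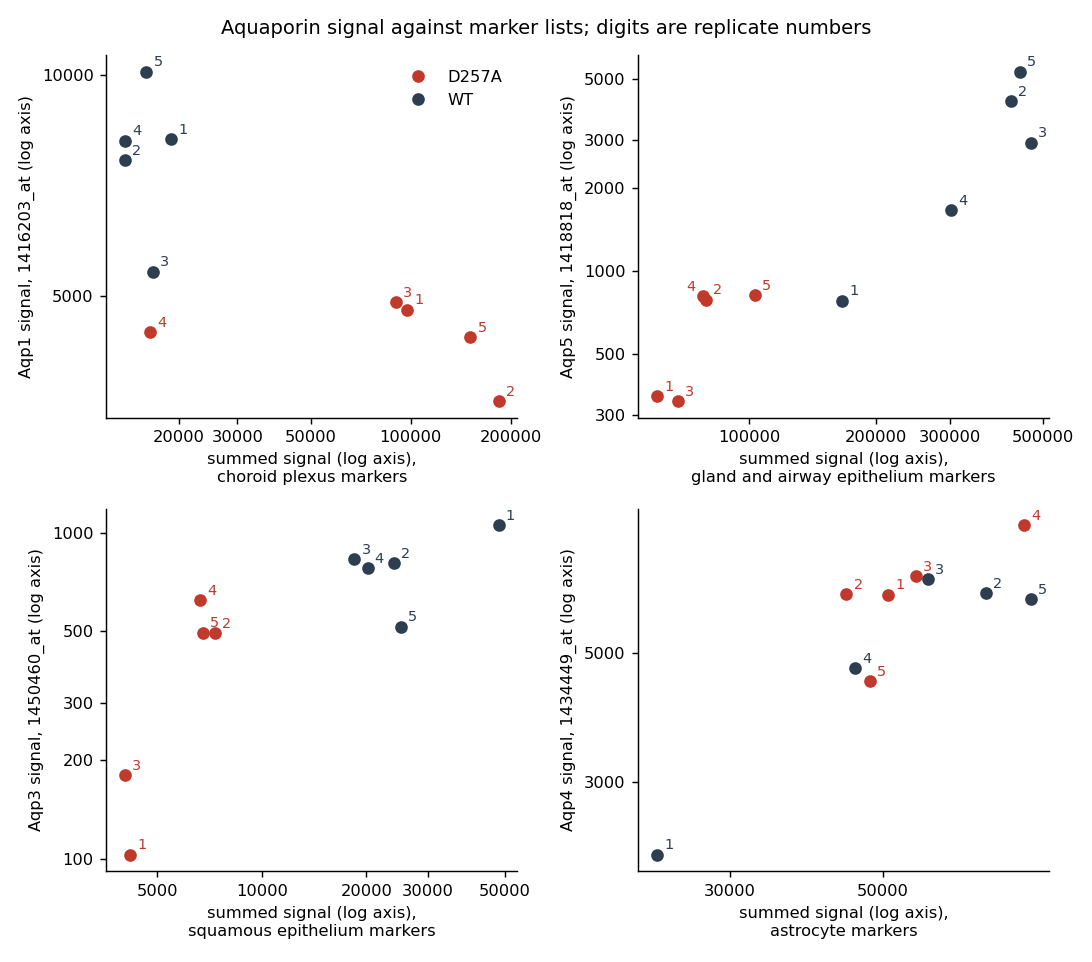
Signal of Aqp1, Aqp5, Aqp3 and Aqp4 (vertical) against the summed signal of 1 marker list each (horizontal), both in linear units on log axes; each point is 1 sample, red D257A and dark WT, and digits are replicate numbers. For Aqp5, WT replicate 1 (780.8) sits nearest the D257A samples on both axes; for Aqp4, WT replicate 1 (2246.7) is lowest on both axes.

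Aqp7, the channel through which fat cells release glycerol, was dim in both probe sets. The brighter, 1418849_x_at, averaged 99.3 ± 35.8 in D257A and 102.8 ± 41 in wild-type cochleae (SD, n = 5 each), with a log2 fold change of -0.04 (adjusted p = 0.973 over all probe sets). The other, 1418848_at, measured 32.8, 179.2, 27.6, 49.6 and 92.2 in D257A replicates 1 to 5, against 205.8, 239.3, 32.6, 64.3 and 263 in wild-type replicates 1 to 5, which overlapped (adjusted p = 0.486). Adipocyte markers (7 of 9 named, 6 tested) held 3 genes called lower, the hormone gene Adipoq, the lipid droplet gene Cidea and the desaturase gene Scd1, and none higher, with a median log2 fold change of -1.04. Of all tested genes, 1.66% were called lower. Retn (log2 fold change -0.84), Fabp4 (-0.31) and Ucp1 (0.96, the opposite direction) were tested and did not pass (limma adjusted p = 0.0851, 0.772 and 0.275). The sum of the named markers was between 46210.9 and 122238 in D257A and between 91744.3 and 139161 in wild-type samples, lowest in D257A replicates 1 and 3. Those 2 samples were also among the lowest in Aqp7 by 1418848_at (32.8 and 27.6). Wild-type replicate 3 was highest in this sum (139161) and, at 32.6, likewise among the lowest in Aqp7 by 1418848_at. With group means removed, the correlation with this sum was 0.426 for 1418848_at (Spearman 0.43) and 0.363 for 1418849_x_at (Spearman 0.358). Without D257A replicates 2 and 5 the correlations were 0.0519 and 0.013. Neither probe set of Aqp7 passed, and what change these signals could show was not tested.

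Genes that free glycerol from fat or use it held no call. Of 7 genes 6 were named and tested, 5 of them negative (median log2 fold change -0.279). Gpd2, the mitochondrial glycerol phosphate dehydrogenase, measured 8735 ± 2619 in D257A and 5640 ± 862.2 in wild-type cochleae (SD, n = 5 each; limma adjusted p = 0.154). Pck1, of glyceroneogenesis, measured 1241 ± 907.7 in D257A and 1729 ± 555.1 in wild-type cochleae (adjusted p = 0.433).

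Aqp9, the glycerol channel of hepatocytes and of white blood cells, was dim. Probe set 1424011_at measured 545.2, 547.6, 540.7, 516.7 and 437.3 in D257A replicates 1 to 5, against 493.4, 317.3, 492.7, 547.1 and 369 in wild-type replicates 1 to 5. The groups overlapped, although 4 of the 5 D257A values lay close together (log2 fold change 0.24, 95% interval -0.27 to 0.74, adjusted p = 0.664 over all probe sets). Probe set 1421605_a_at averaged 217.8 ± 133.5 in D257A and 204.2 ± 127.7 in wild-type cochleae (adjusted p = 0.956).

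Neutrophil markers, set beside Aqp9, held 3 genes called higher in D257A and none lower. Of 13 markers 12 were named and 11 tested, all of them positive (median log2 fold change 0.945), and the granule enzymes Mpo and Ctsg and the receptor Fpr2 were called higher (0.657% of tested genes were). Their sum was between 101911 and 306796 in D257A and between 72832.3 and 122175 in wild-type samples. The mean wild-type signal of Csf3r (552.1) was below the edge, so it was tested only because it was high in D257A samples. The count of positive genes and the median are thus no support for a direction. With group means removed, 1424011_at had a correlation of -0.172 with this sum (Spearman -0.212) and 1421605_a_at one of -0.611 (Spearman -0.685). Without D257A replicate 4 and wild-type replicate 4 these were 0.0586 and -0.611. The hepatocyte list (5 of 6 named) rested on Ttr, its 1 tested gene, while Alb, Apoa1, Fgb and Ahsg were dim; it summed to between 11923.5 and 163868 in D257A and between 6631.9 and 13087 in wild-type samples.

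Aqp8, a channel of liver, pancreas and gut epithelium, had 1 dim probe set. It measured 183.6, 666.9, 396.6, 115.9 and 525 in D257A replicates 1 to 5, against 199.7, 342.9, 324.7, 622.5 and 228.1 in wild-type replicates 1 to 5. The ranges were nearly the same (log2 fold change -0.0069, SE 0.47, adjusted p = 0.998 over all probe sets).

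Aqp11, the intracellular member, was tested by 1447606_x_at, whose suffix marks a probe set that can also read other transcripts. It measured 1833.5, 2748.6, 2006.3, 1857.7 and 2015.8 in D257A replicates 1 to 5, against 2001.8, 2069, 2575.6, 1667.3 and 1530.3 in wild-type replicates 1 to 5. The arrays least like their own groups, D257A replicate 2 and wild-type replicate 3, were the highest of each, and the groups overlapped (log2 fold change 0.09, 95% interval -0.30 to 0.49, adjusted p = 0.845). The sign turned when arrays were centred on the median.

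Both dim probe sets of Aqp11 had 4 of 5 D257A values above all wild-type values. Probe set 1429254_at measured 485.2, 335, 425.1, 475.7 and 459.7 in D257A replicates 1 to 5, against 386.6, 290.2, 255.9, 314 and 417.5 in wild-type replicates 1 to 5, with D257A replicate 2 as the exception. Probe set 1455846_at averaged 486.5 ± 289.2 in D257A and 253.8 ± 113.8 in wild-type cochleae, with D257A replicate 4 (87.9) as the exception. Neither passed in the fit over all probe sets (log2 fold changes 0.38 and 0.74, adjusted p = 0.481 and 0.539). The tested and the dim probe sets did not vary together over the 10 arrays (r of -0.492 for 1447606_x_at with 1429254_at and 0.13 with 1455846_at).

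**Figure D3:**
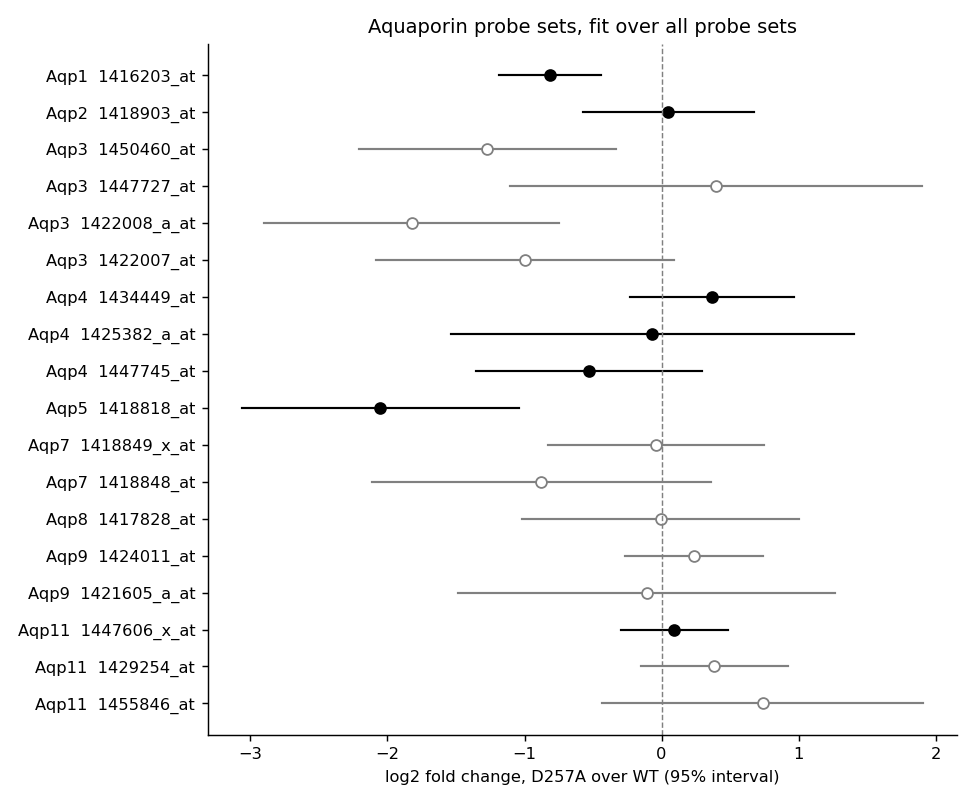
Log2 fold change of D257A over WT for the 18 aquaporin probe sets with 95% intervals, from the fit over all 45037 probe sets, n = 5 each; filled black points lie in the brighter 50% and open grey points are dim. The interval of Aqp1 (-1.19 to -0.44) is the narrowest of those that exclude 0, which are those of Aqp1, Aqp5 and 2 of the 4 of Aqp3.

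Over all 18 probe sets in the fit without a filter, 11 log2 fold changes were negative and 7 positive, with a median of -0.0531. Over all probe sets 41.3% were negative and the median was 0.0917. Unadjusted p-values under 0.05 were found for 4 of the 18, those of Aqp1, Aqp5 and 2 of Aqp3, against 15.9% of all probe sets. Aqp1 alone passed the adjusted threshold in that fit (adjusted p = 0.039), as did 1.31% of all.

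Several members are neighbours in the genome. Aqp2, Aqp5 and Aqp6 are adjacent protein-coding genes on chromosome 15, and Aqp7 and Aqp3 are adjacent on chromosome 4. Aqp5 fell while Aqp2 next to it had a log2 fold change of 0.05, whose interval of -0.55 to 0.65 does not reach the interval of Aqp5 (-3.08 to -1.03). The difference between neighbours was not tested. Aqp6, an anion-conducting member that was not followed in depth, averaged 596 ± 367.2 in D257A and 879.2 ± 420.5 in wild-type cochleae by its brightest probe set (log2 fold change -0.71, adjusted p = 0.538). Of the other aquaporins outside the 9, Mip of the lens measured 107.2 ± 73.5 in D257A and 31.9 ± 17.3 in wild-type cochleae and Aqp12 446.3 ± 349.4 and 559.9 ± 354.6, both dim and without a call (adjusted p = 0.253 and 0.872 over all probe sets).

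The genes whose variation within the groups was most like that of each tested aquaporin were found by Pearson correlation of log2 signals with group means removed, over 10 arrays, among 11870 other genes. They are a description: as the highest of so many values they were bound to be high. For Aqp5 they were Homer3 (0.982) and C1qtnf4 (0.974), and for Aqp4 by 1434449_at they were Kcnd2 (0.984), a potassium channel of neurons, and Cldn10 (0.974), a tight junction gene. Aqp1 came closest to Vps39 (0.954) and Ttll6 (0.951), Aqp2 to Slc9a3r1 (0.942) and Wfdc3 (0.914), and Aqp11 to Zfp809 (0.978) and Siglecg (0.962). None of these 10 genes was called between the groups. Without D257A replicate 2 and wild-type replicate 3 the values for Aqp1 dropped to 0.872 and 0.759, and those of Aqp5 were 0.989 and 0.979.

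**Figure D4:**
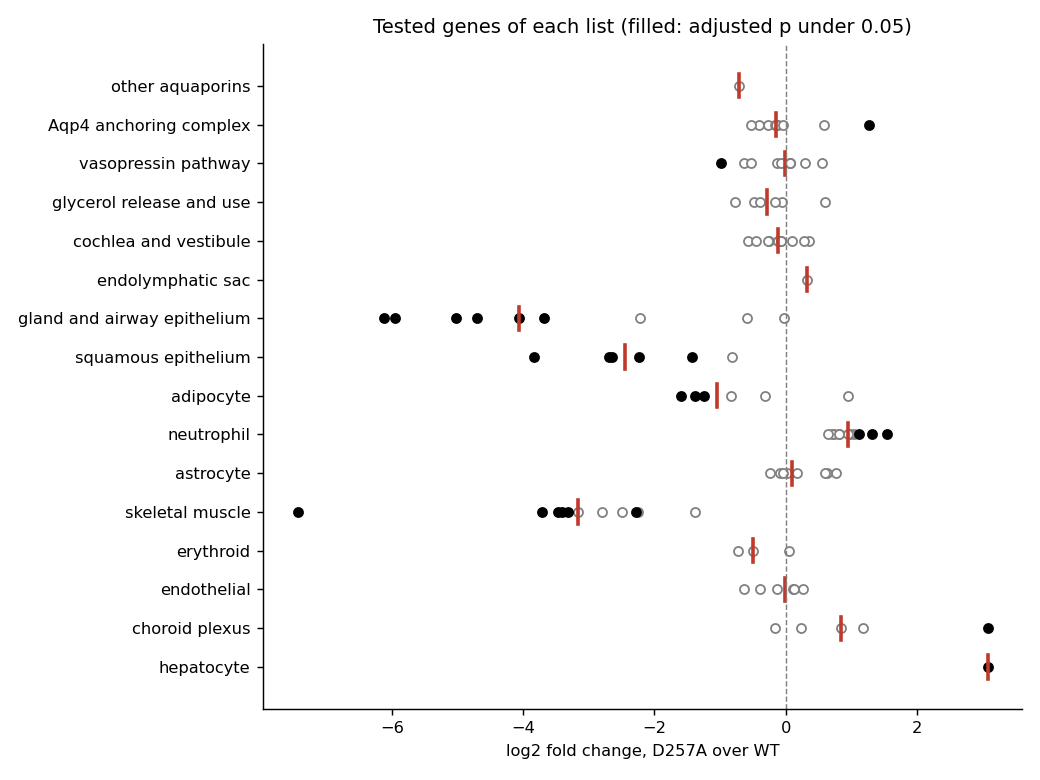
Log2 fold change of D257A over WT for every tested gene of the partner and marker lists, n = 5 each; filled points have an adjusted p under 0.05, open points do not, and the red bar is the median of the list. The medians of the gland and airway (-4.07), skeletal muscle (-3.17) and squamous (-2.44) lists lie far left of 0, and those of the partner lists lie near it (-0.279 to -0.00493), except for the other aquaporins, with Aqp6 as their 1 tested gene. The gland and airway, muscle and squamous lists each hold genes tested only because they were high in WT. Their medians are thus no support for a direction.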

How the data were processed

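RNA of 5 D257A and 5 wild-type cochlea samples was labelled with biotin for mouse Affymetrix arrays, per the labels' protocols. The authors deposited array intensity on a linear scale, 1 signal for each probe set in each sample. GCOS 1.3 is the only tool listed, per the submitters' processing notes. How background was subtracted, how probes were summarised and to which target arrays were scaled is not given in the sources used here. The 2% trimmed mean is nearly equal on all arrays, so the authors' scaling was kept. Control probe sets filled for 1 array only (64) were left out. No batch could be tested, since scan dates were not used here, nor were detection calls, and the number of arrays limits the precision.

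Probe sets were named from the platform annotation, updated by gene ID: 34945 had 1 gene, 932 several and 9160 were unnamed here. Signals were taken as log2(signal + 16), so fold changes of dim genes are understated. The brighter fraction of 0.5 was fitted in R 4.3.3 by lmFit and trended eBayes of limma 3.58.1, with group as the only term and 8 residual degrees of freedom, and its two-sided p-values were adjusted after Benjamini and Hochberg across the 22518 probe sets, with a threshold of 0.05. Values for dim probe sets come from the same fit over all 45037. A list gene is its brightest probe set, and 137 of 150 list genes were named. The 9 members, the 16 lists and the tests were chosen with earlier results of these data known. Named genes were every member probe set, the called genes or the 2 smallest p-values of each list, and the 2 genes most like each tested member; where the text gives fewer, the rest are in the counts. No correlation was given a p. The labels do not say whether same-numbered samples were paired, and the main fit did not pair them. Deviations of same-numbered samples correlated at -0.337 to 0.183, which cannot settle whether they were processed together. On simulated data, with 177 changed probe sets among 22518 tested, the fit recovered 44% of shifts of 1 log2 unit and 90.7% of those of 2 units, and 5.6% of its calls were false. The simulation drew each probe set independently, with the same spread in both groups, so these rates need not hold for the real arrays. The alternatives were other pseudocounts, scalings, filters, variance settings, array weights, the block, each array left out, the design text's threshold and gene means; leaving out D257A replicate 2 and wild-type replicate 3 together was chosen after seeing the data.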

Additional observations from a re-analysis of the deposited data

Results flagged for a closer look

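In 3 of 36 groups of 5 samples 1 array lay far from the other 4, a gap over more than 0.71 of the group's range; chance marks about 1 group in 20. Aqp11 by 1447606_x_at measured 2748.6 in D257A replicate 2 and 1833.5 to 2015.8 in the other D257A samples. Aqp9 by 1424011_at, a dim probe set, measured 437.3 in D257A replicate 5 and 516.7 to 547.6 in the others of that group. Aqp2 measured 1088.9 in wild-type replicate 4 and 397.2 to 544.4 in the other wild-type samples.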

How the results depend on the processing

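The count of called aquaporin probe sets was 2 with either other pseudocount, either other scaling, no intensity trend, array weights and the design text's threshold (unadjusted p under 0.05 and a fold over 1.1). It was 1 with no filter on dim probe sets (Aqp1), among the brightest 30% (Aqp1; Aqp5 not tested), with the replicate block (Aqp5) and without D257A replicate 2 and wild-type replicate 3 (Aqp1). It was 0 to 1 when 1 array was left out, with adjusted p of up to 0.0993 for Aqp1 (without wild-type replicate 5) and 0.123 for Aqp5 (without wild-type replicate 2), both always negative; the cause was not tested. Over all probe sets, 513 calls became 322 among the brightest 30%, where fewer are tested, 1217 with array weights, 188 with the replicate block, 3809 at the design text's threshold and 197 to 571 without 1 array; centring on the median gave 479 lower and 174 higher, against 280 and 233. List genes called were 26, and 55 at the design text's threshold, 24 with the block and 19 to 29 without 1 array. Signs turned only for uncalled members: Aqp2 at -0.0505 (median centring), -0.0602 (quantile normalization), -0.111 (array weights) and -0.0831 to 0.12 without 1 array, Aqp4 by 1425382_a_at at 0.243 (array weights) and -0.539 to 0.333, and Aqp11 by 1447606_x_at at -0.00634 (median centring) and -0.00741 to 0.197. Signal over background is unknown, which limits the dim members.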
